A study of Mus musculus with 12 samples.

Results

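The 9 genes described here encode enzymes of haem synthesis and carriers that supply it: Alas2, Alad, Uros, Urod, Cpox, Ppox and Fech, and the mitochondrial carriers Slc25a37 and Slc25a38. They were taken by gene symbol from a table of RNA sequencing counts of 33924 genes, where all 9 were found. Of these, 8 had enough counts to be tested, and Alas2 did not. The series holds 12 mouse libraries of sorted bone marrow progenitors in 4 groups of 3. All mice were Mx+, a Cre driver that is switched on by interferon and acts in blood cells and in other tissues. Het mice were Mx+ Wt1fl/+, carrying 1 conditional allele of Wt1, a zinc finger transcription factor, and controls were Mx+ Wt1+/+. Each genotype was present as "young acute" and "old chronic" mice, called young and old here. The labels explain neither word and give no age in numbers, and their treatment field reads none, so age and the acute or chronic condition cannot be told apart. Library numbers in the titles run from 1 to 3 in old controls and from 4 to 6 in old hets. Young libraries are 18 (young control 3), 19 to 21 (young hets), and 29 and 30 (young control 1 and young control 2). These numbers therefore divide with age as well, and within each age the hets form a run of their own. The cells were live, negative for lineage markers and Sca1 and positive for c-Kit, a gate that holds several kinds of myeloid progenitor in unstated proportions, and they came from femurs and tibias. Nothing in the labels ties a library to 1 animal, so the p-values below measure the spread between these libraries only.

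Haem is made partly in the mitochondrion and partly in the cytosol. ALA synthase joins glycine and succinyl-CoA in the mitochondrion, the product is carried out and built into a ring in the cytosol, and the last steps take place in the mitochondrion again, where ferrochelatase inserts iron. Alas2 is the synthase of red cell precursors and Alas1 that of most other cells. In the marrow the pathway is best known for its steep rise as progenitors turn into haemoglobin-making erythroblasts, where Gata1 and Klf1 drive several of its genes.

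The sequence just upstream of the gene start is shown for 3 genes, because GATA factors are known to drive haem genes. The levels of the tested members varied together across libraries (below). Alas2 was not tested and is not part of that result, and its counts lay almost only in old libraries. RefSeq windows of 250 bases (build GRCm38.p6) were matched by symbol for 7 of the 9 genes, with 9 windows in all; Fech and Slc25a37 had no entry. Capitals mark the core bound by GATA factors, spelled AGATAA or with T as its first letter, on either strand. Each sequence is read 5′ to 3′ on the gene's own strand.
Alas2 (chrX:150547167-150547416, plus strand): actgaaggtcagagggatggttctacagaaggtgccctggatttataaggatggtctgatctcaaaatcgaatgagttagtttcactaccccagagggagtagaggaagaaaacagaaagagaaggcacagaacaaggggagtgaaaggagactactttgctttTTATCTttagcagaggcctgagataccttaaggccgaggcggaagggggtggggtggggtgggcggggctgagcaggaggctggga
Cpox (chr16:58669958-58670207, plus strand): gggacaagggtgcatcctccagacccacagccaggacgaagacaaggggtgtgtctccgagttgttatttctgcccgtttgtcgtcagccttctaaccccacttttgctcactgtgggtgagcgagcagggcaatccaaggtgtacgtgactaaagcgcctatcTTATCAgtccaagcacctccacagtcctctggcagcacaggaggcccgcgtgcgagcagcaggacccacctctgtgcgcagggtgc
Alad (chr4:62520064-62520313, minus strand): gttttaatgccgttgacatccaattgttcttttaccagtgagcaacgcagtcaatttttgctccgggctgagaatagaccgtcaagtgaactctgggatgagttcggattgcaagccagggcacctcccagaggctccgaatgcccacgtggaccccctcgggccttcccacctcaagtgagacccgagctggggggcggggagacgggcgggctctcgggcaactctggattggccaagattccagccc
Alas2 and Cpox each held 1 GATA motif, 86 bases before the gene start in both. Neither of the 2 Alad windows, of which 1 is shown, held any. The motif was in 3 of the 9 windows (the remaining one upstream of Uros) and in 16.6% of 32851 windows upstream of all genes. CCNCNCCC, a motif of Klf factors, was in 5 of 9 windows and in 45.9% of all, with 4 matches in the Alas2 window and 2 in the Alad window shown. The other Alad window, which overlaps it, held 4 matches and 1 of the next motif. GTGGGNG, letters shared by the sites of Wt1 and Egr1, was in 3 of 9 windows and in 28.1% of all. Both strands were searched, and these last motifs can share bases. The matches describe letters and say nothing of binding.

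Depth differed widely between libraries, from 645460 to 9645502 total counts, and between groups. The mean totals were 1203960 counts in young controls, 5242717 in young hets, 5224271 in old controls and 1703378 in old hets. Levels are in CPM, counts scaled to a common library total, so 3 counts equal between 0.275 and 5.10 CPM depending on the library. Wt1 itself had 1 to 23 counts per library. Its level was 6.07, 6.80 and 4.59 CPM in young controls and 2.35, 0.601 and 3.92 in young hets, against 0.0916, 0.943 and 0.884 in old controls and 2.43, 0.802 and 2.63 in old hets. Young hets were thus below young controls without overlap, but on only 7, 4 and 23 counts against 8, 4 and 6. In young controls 3 counts equal at least 2.28 CPM, more than the gap between 4.59 and 3.92 CPM. Among old mice, with 1 to 4 counts each, 2 of 3 hets lay above every control. The deleted stretch of Wt1 is not given in the labels, and a tag at the transcript's end need not lie in it. Mitochondrial ribosomal RNA took 4.35% to 8.22% of counts in young controls, 2.999% to 3.51% in young hets, 1.70% to 2.38% in old controls and 1.40% to 4.78% in old hets. Old control 1 and young control 3 stood apart from their groups in earlier work on these data. Results that rest on them are given with and without them.

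The 9 genes together took 0.0989% ± 0.0144 of all counts in young controls and 0.115% ± 0.0496 in young hets, but 0.0580% ± 0.0213 in old controls and 0.0521% ± 0.0113 in old hets (mean ± SD, n = 3 each). On the scaled level their sum was 1184, 937 and 1189 CPM in young controls, 656, 1219 and 1603 in young hets, 405, 426 and 758 in old controls and 452, 600.02 and 476 in old hets. Every young control lay above every old library, and among young hets the lowest library, young het 1, lay inside the old range. Most of the sum came from Slc25a37, Cpox and Alad.

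**Figure D1:**
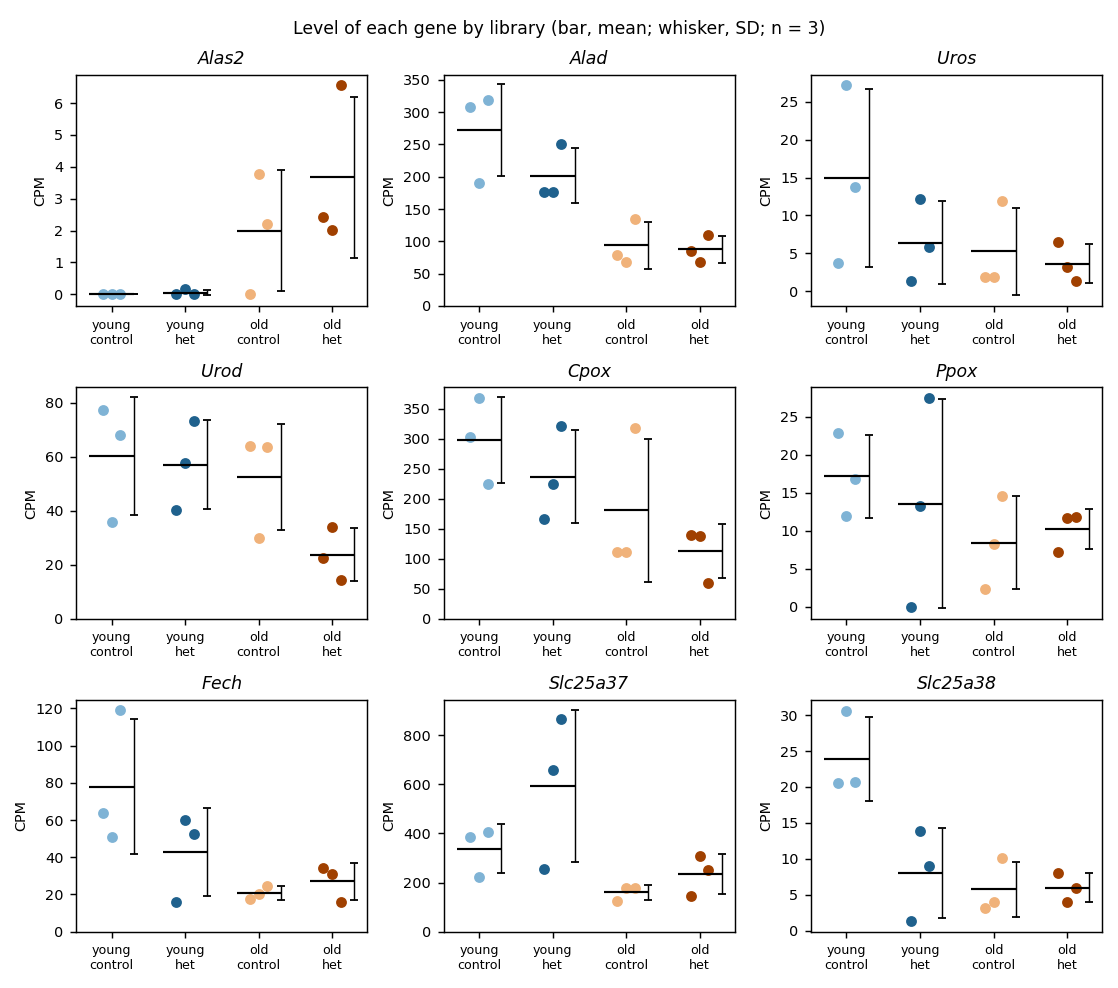
Level of each of the 9 genes in each library, in CPM on a linear axis that differs between panels; points are libraries, horizontal bars group means and whiskers SD (n = 3). Alad lies between 190 and 319 CPM in young controls and between 67.7 and 135 in old controls, while Alas2 has counts almost only in old libraries.

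The first enzyme, ALA synthase, was present mainly as Alas1, and Alas2 was near the limit of detection. Alas2 had 0 counts in all 3 young controls, and 0, 1 and 0 counts in young hets. Old controls had 0, 16 and 5 counts, and old hets 3, 5 and 10. As levels these were 0, 0.150 and 0 CPM in young hets, 0, 3.77 and 2.21 CPM in old controls and 2.43, 2.004 and 6.57 CPM in old hets. All old hets lay above all young libraries in measured level. In young controls 3 counts equal 2.28, 5.10 and 2.29 CPM, so in any single library a level like that of the lower old hets could give 0 counts. Pooled over the young controls, though, 3 counts equal 0.933 CPM, which is below the lowest old het at 2.004 CPM. Old controls overlapped both young groups only through old control 1, the deepest library, which had no count. They overlapped old hets through old control 2 and old control 3.

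Pooled over libraries, Alas2 stood at 3.43 CPM in old hets and 0.0645 in young hets, a ratio of 53.1 with a 95% interval of 8.39 to 2213 that covers counting error only. For young controls the floor of 3 counts over the group is 0.933 CPM. Old controls at 1.21 CPM were 1.29-fold above it, or 3.46-fold without old control 1. These folds carry no counting error of the old controls and are not lower bounds. Without young control 1, young control 3 or old control 2 they lay under that floor. The only read in young hets was in young het 2, and without that library old hets at 3.43 CPM were 10.1-fold above the floor of young hets. Without young het 3 or old het 3 the ratio of old to young hets was 33.0 or 33.2. Between old hets and old controls the pooled ratio was 2.84 (1.43 to 5.60, counting error only). It was 1.06 (0.533 to 2.09) without old control 1, 9.03 without old control 2 and 1.78 without old het 3. An exact two-sided permutation test over libraries could not pass 0.05 in any comparison, since 3 against 3 allows no p under 0.1. That test gave this smallest p of 0.1 for old hets against young hets, whose levels did not overlap. It gave 0.4 for old against young controls, 0.5 for old hets against old controls and 1 for young hets against young controls. Adjusted over the 4, the values were 0.4, 0.667, 0.667 and 1. Alas2 overlaps Apex2, an endonuclease gene, in RefSeq. The strand setting of the counts is not stated, so reads from the stretch that the pair shares may not be told apart. Young het 1 had 53 counts of Apex2 and 0 of Alas2, and old control 1 had 59 and 0. Apex2 averaged 1.27 CPM in young controls, 8.23 in young hets, 4.33 in old controls and 6.65 in old hets, so that young hets had Apex2 reads in all 3 libraries and an Alas2 read in 1.

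Alas1 was the more abundant synthase in every library. Its level was 18.98, 17.0 and 39.7 CPM in young controls and 59.1, 88.7 and 83.7 in young hets, and 38.6, 172 and 80.0 in old controls and 64.7, 68.5 and 69.0 in old hets. Young controls were the lowest group, separate from both het groups, and overlapped old controls only through old control 1. In the 6 libraries where Alas2 was counted, Alas1 had from 10.5 to 591 times as many counts; old het 3 had the lowest ratio and young het 2 the highest.

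**Figure D2:**
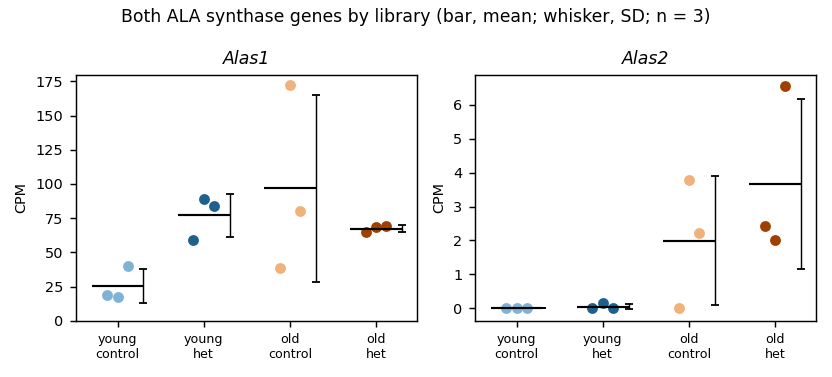
Levels of Alas1 and Alas2 by library in CPM on linear axes that differ between panels; points are libraries, bars group means and whiskers SD (n = 3). Young controls lie at 17.0 to 39.7 CPM for Alas1 and at 0 for Alas2.

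Of the cytosolic enzymes, Alad condenses ALA to porphobilinogen. Its level was 308, 190 and 319 CPM in young controls and 177, 177 and 250 in young hets, against 78.2, 67.7 and 135 in old controls and 84.9, 68.1 and 110. in old hets. All 6 young libraries lay above all 6 old ones, as for no other member, and within each age the genotypes overlapped.

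Uros, which closes the ring, was the least counted of the tested enzymes with Ppox. Uros measured 3.796, 27.2 and 13.8 CPM in young controls, 1.34, 12.2 and 5.80 in young hets, 1.92, 1.89 and 11.9 in old controls and 6.47, 3.21 and 1.31 in old hets. The groups overlapped throughout. Uros overlaps Bccip in RefSeq, a gene that averaged 68.5 to 112 CPM per group, so part of either count could belong to the other. Urod, which trims the side chains of the ring, measured 77.4, 35.7 and 68.0 CPM in young controls, 40.3, 57.8 and 73.1 in young hets, 64.1, 29.9 and 63.7 in old controls and 22.6, 34.1 and 14.4 in old hets. Young controls, young hets and old controls covered nearly the same range, and old hets lay lowest, overlapping old controls through old control 2 but not young hets or young controls.

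The last 3 enzymes work in the mitochondrion. Cpox, which makes protoporphyrinogen, measured 304, 367 and 224 CPM in young controls, 166, 224 and 321 in young hets, 111, 112 and 318 in old controls and 140., 137 and 60.4 in old hets. Old control 3 stood at the level of young libraries while the other old controls matched old hets. Ppox, which oxidises protoporphyrinogen, measured 22.8, 11.9 and 16.8 CPM in young controls and 0, 13.2 and 27.4 in young hets, against 2.38, 8.25 and 14.6 in old controls and 7.28, 11.6 and 11.8 in old hets. No order of the groups was visible in it. Fech, the ferrochelatase that inserts iron, measured 63.8, 51.0 and 119 CPM in young controls, 15.8, 60.1 and 52.3 in young hets, 17.6, 20.3 and 24.8 in old controls and 34.0, 31.3 and 15.8 in old hets. All young controls exceeded all old libraries, and young het 1 lay as low as the lowest old het.

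The carriers differed in pattern. Slc25a37, mitoferrin-1, brings iron into the mitochondrion of erythroid cells and measured 384, 223 and 407 CPM in young controls, 254, 660. and 864 in young hets, 126, 178 and 178 in old controls and 146, 308 and 250.2 in old hets. Young het 2 and young het 3 exceeded every other library, and young controls lay above old controls without overlap. In RefSeq the gene overlaps 3 long noncoding RNAs. Slc25a38, which carries glycine for ALA synthesis, measured 20.5, 30.6 and 20.6 CPM in young controls, 1.34, 13.8 and 9.04 in young hets, 3.21, 4.01 and 10.2 in old controls and 8.09, 4.01 and 5.91 in old hets. Young controls lay above all 9 libraries of the other groups, which overlapped one another.

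By group mean, young controls were highest for Alad, Uros, Urod, Cpox, Ppox, Fech and Slc25a38, young hets for Slc25a37 and old hets for Alas2. Neighbours in these orders overlapped for every one of the 9 genes but 2. The exceptions were Alad between young hets and old controls and Slc25a38 between young controls and young hets.

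The comparison of old with young controls addresses how the pathway differs with age or condition when both Wt1 alleles are intact, and it held the only members past the threshold. Alad fell by 1.55 in log2 units (SE 0.35 and adjusted p = 0.0115 in edgeR's quasi-likelihood test over 10604 genes), from a mean of 272 to 93.6 CPM. Fech fell by 1.92 (SE 0.52, adjusted p = 0.0310), from 78.0 to 20.9 CPM. These were 2 of the 8 tested genes, against 6.98% of all tested genes called in this comparison. All called genes divided into 296 higher and 444 lower, or 4.19% lower. With raw library totals that split was 696 higher to 310 lower, since the median of all genes then moved by 0.30, and Alad alone among the members was called.

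The other 6 members had log2 changes of -2.06 (Slc25a38, SE 0.88, adjusted p = 0.161), -1.51 (Uros), -1.08 (Slc25a37, SE 0.40, adjusted p = 0.109), -1.07 (Ppox), -0.73 (Cpox) and -0.22 (Urod), none past the threshold in edgeR. The estimates of all 8 tested members were below 0, with a median of -1.30. For all tested genes the median was 0.22, and 57.9% of estimates lay above 0. Groups did not overlap for 4 of the 8 (Alad, Fech, Slc25a37 and Slc25a38), against 31.2% of all tested genes. Slc25a37 did pass with DESeq2 (adjusted p = 0.0418).

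Both calls rested on few libraries. Without old control 1 or without old control 2 no member was called, with adjusted p = 0.0611 and 0.0714 for Alad in edgeR. Without young control 3 or without old control 3 Alad was called and Fech was not (adjusted p = 0.0933 and 0.0717 in edgeR). Without both old control 1 and young control 3, Alad fell short at -1.30 (adjusted p = 0.0798, edgeR) and Fech at -1.35 (adjusted p = 0.228, edgeR).

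**Figure D3:**
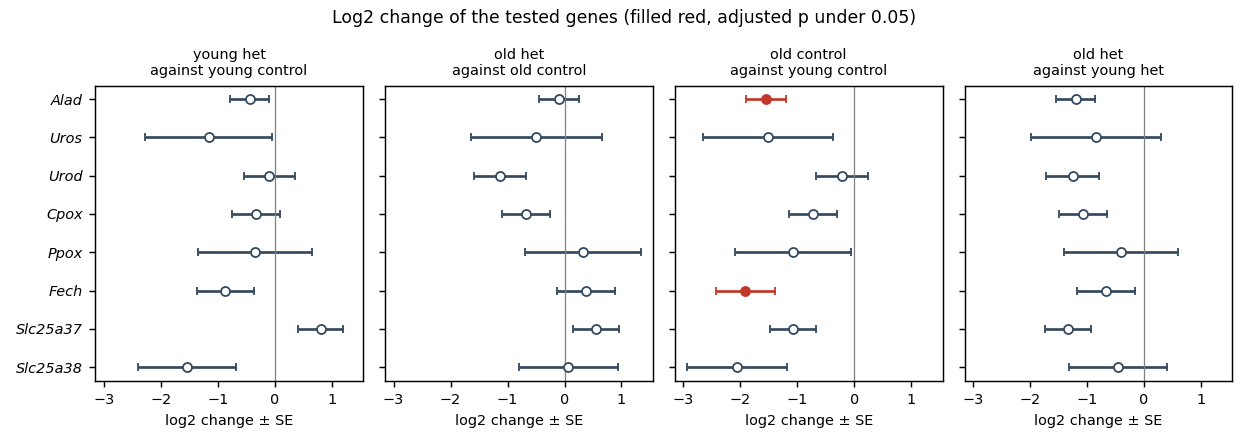
Log2 change of the 8 tested genes in 4 comparisons, with bars of 1 SE; filled red points passed an adjusted p of 0.05. Only Alad at -1.55 and Fech at -1.92, old against young controls, are filled, and in both comparisons of age every point lies below 0.

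Among hets no member differed past the threshold between old and young. The estimates were again all below 0, with a median of -0.96 against 0.01 for all tested genes, of which 50.6% lay above 0. In this comparison 0 of 8 members and 1 of all tested genes (0.00943%) were called by edgeR, and 15 of all genes by DESeq2; 4 members had an unadjusted p under 0.05. The estimates were -1.33 (SE 0.40, adjusted p = 0.584, edgeR) for Slc25a37, -1.26 (SE 0.46, adjusted p = 0.706) for Urod, -1.20 (SE 0.35, adjusted p = 0.584) for Alad and -1.07 (SE 0.43, adjusted p = 0.723) for Cpox. Groups did not overlap for Alad, Urod and Cpox, 3 of 8 members against 14% of all tested genes. Fech stood at -0.67 and Slc25a38 at -0.46, both smaller than among controls, and whether they differ from the values among controls is the difference of het effects given below.

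Young hets against young controls asks what 1 conditional Wt1 allele does in young mice, and 0 of 8 members were called, against 0.424% of all tested genes. No member had an unadjusted p under 0.05, and no member was called by DESeq2. Slc25a37 had the only estimate above 0, at 0.81 (SE 0.40, adjusted p = 0.372, edgeR), with means of 593 against 338 CPM. Slc25a38 was at -1.54 (SE 0.85, adjusted p = 0.443, edgeR), with means of 8.06 against 23.9 CPM, and was the 1 member of 8 whose groups did not overlap, against 16.8% of all tested genes. Fech was at -0.87 (SE 0.50, adjusted p = 0.463, edgeR). The median of the members was -0.39. That of all tested genes was 0.08, with 54.2% of them above 0.

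Old hets against old controls gave 0 called members and 0 called genes of any kind (0%), by edgeR as by DESeq2, with an unadjusted p under 0.05 for 380 genes. Among members that was Urod, at -1.13 (SE 0.46, adjusted p = 0.999, edgeR), with means of 23.7 against 52.6 CPM. Estimates lay above 0 for 4 members and below 0 for 4, with a median of -0.01 against -0.05 for all tested genes, of which 46.8% lay above 0. Slc25a37 was at 0.55 (SE 0.40, adjusted p = 0.999, edgeR), with 235 against 161 CPM, so its estimate was above 0 at both ages, and no member's groups failed to overlap, against 11.1% of all tested genes.

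The het effect in old mice minus that in young mice tests whether the genotype acted differently at the 2 ages. No member was called, against 0.0849% of all tested genes, and none had an unadjusted p under 0.05. The estimates farthest from 0 were 1.60 for Slc25a38 (SE 1.22, 95% interval -0.78 to 3.99), 1.25 for Fech (SE 0.71, -0.15 to 2.65) and -1.04 for Urod (SE 0.64, -2.30 to 0.22), intervals wide enough to hold 0 and large differences alike. Slc25a37 was at -0.25 (-1.36 to 0.85). Estimates lay above 0 for 5 of 8 members, against 43.4% of all tested genes. The 2 comparisons of genotype share no library, and the comparisons of age share none with each other either. Each comparison of genotype does share a group with each comparison of age, so those estimates are not independent. Young hets against young controls and old against young controls, for example, both use the young controls.

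Within the summed counts of the 9 genes Slc25a37 took 30.2% ± 5.60 in young controls and 32.1% ± 9.18 in old controls, against 49.0% ± 8.81 in young hets and 45.4% ± 11.3 in old hets (mean ± SD, n = 3). Cpox took 27.9% and 31.9% in the control groups and 21.2% and 22.2% in the het groups. Alad took 24.4% ± 3.55 in young controls and 17.7% to 19.03% in the other groups. The shares of Slc25a37 overlapped between old hets and old controls (from 32.4% and up to 41.8%), and not between young hets, from 38.8%, and young controls, up to 34.3%. Because the kit reads 1 end of each transcript, these shares are not corrected for gene length.

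**Figure D4:**
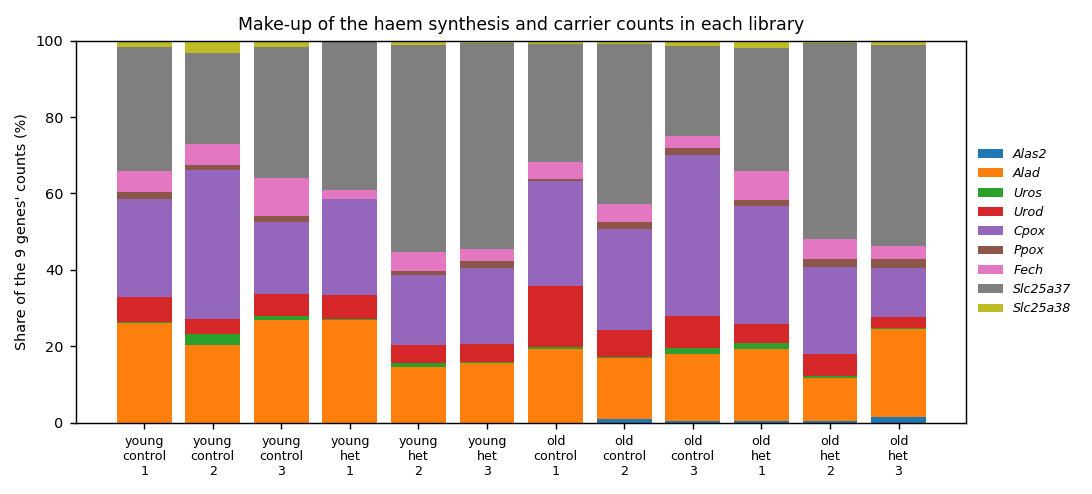
Share of each gene in the summed counts of the 9 genes, in percent, for each of the 12 libraries. Slc25a37 is the largest block in all 6 het libraries and in 4 of 6 controls, with group means of 49.0% and 45.4%, against 30.2% and 32.1% in controls.

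Of 27 further genes of haem and iron handling in the table that are reported here, 25 were tested. Between old and young controls 2 of the 25 were called, near the 6.98% of all tested genes called there. Alas1 rose by 1.91 (SE 0.49, adjusted p = 0.0234, edgeR), with overlapping groups. Abcb6, a porphyrin transporter, fell by 1.87 (SE 0.52, adjusted p = 0.0355, edgeR), from 47.7 to 13.3 CPM, without overlap. Alas1 lost its call without young control 1, young control 2 or old control 2, the last giving 1.204. Abcb6 lost its call without any 1 of 6 libraries: young control 1, young control 3, young het 2 or any of the old controls. With the compared groups alone Alas1 and Abcb6 missed the threshold (adjusted p = 0.0811 and 0.0551, edgeR), and without old control 1 and young control 3 together Abcb6 did (adjusted p = 0.241, edgeR). The median of the list was -0.02, nearer to the 0.22 of all genes than that of the members.

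In the other comparisons 0 of the 25 were called. Between young hets and young controls Alas1 was at 1.58 (SE 0.49, adjusted p = 0.147, edgeR), without overlap, and the list's median was 0.02. With no filter on low counts edgeR called Alas1 there (adjusted p = 0.0332), as it did without old control 1 and young control 3 (2.09, adjusted p = 0.0237). Between old hets and old controls Snx3, a sorting nexin that recycles the transferrin receptor, was at -1.63 and Fth1, the ferritin heavy chain, at -0.83, with a list median of -0.15. Between old and young hets Tfrc, the transferrin receptor, was at -1.09 (adjusted p = 0.713, edgeR), with a list median of -0.37. For the difference of het effects Alas1 was at -2.11 (SE 0.67, adjusted p = 0.189, edgeR), with a list median of -0.20. Without old control 1 and young control 3 Alas1 passed there (adjusted p = 0.0408, edgeR).

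Erythroid genes varied with the members. The summed level of 29 erythroid genes was 3957, 3680 and 3806 CPM in young controls, 2620, 3533 and 3875 in young hets, 1809, 1233 and 3632 in old controls and 2428, 1889 and 1384 in old hets. Old control 3 lay within the young range and had the highest sum of the 9 haem genes among old libraries. In these bulk libraries fewer erythroid cells and less RNA per cell cannot be told apart. The part of the erythroid share in the members' differences was not tested as a cause. With the erythroid sum as a covariate, Alad was at -1.18 (adjusted p = 0.264, edgeR) and Fech at -1.26 (adjusted p = 0.493, edgeR) between old and young controls, the members' median was -0.60, and 20 genes of the whole table were called. With the share of mitochondrial ribosomal RNA as a covariate Alad was at -1.70 (adjusted p = 0.312, edgeR) and Fech at -2.64 (adjusted p = 0.303, edgeR), and 0 genes of the table were called.

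Of the 27 erythroid genes tested, 1 was called between old and young controls, no larger a share than the 6.98% of all tested genes. Zfpm1, a cofactor of Gata1, fell by 1.92 (SE 0.45, adjusted p = 0.0134, edgeR), from 432 to 114 CPM. It lost the call without old control 2 or old control 3. Estimates were below 0 for 22 of 27, with a median of -0.80. Between old and young hets 0 were called and all 27 estimates lay below 0, with a median of -0.95, close to the -0.96 of the members. Slc4a1, the anion exchanger of the red cell membrane, was at -4.85 (SE 1.49, adjusted p = 0.584, edgeR), and Epor, the erythropoietin receptor, at -2.31 (SE 0.74, adjusted p = 0.615, edgeR). Between young hets and young controls 0 were called, with Zfpm1 at -1.40 (adjusted p = 0.155, edgeR; 0.0402 with DESeq2), Cpne2 at 1.06 and a median of -0.10. Without old control 1 and young control 3 Zfpm1 passed at -1.63 (adjusted p = 0.0428, edgeR) and Cpne2 at 1.68 (adjusted p = 0.0202, edgeR). Without young control 3 alone Cpne2 passed (adjusted p = 0.0244, edgeR), and with no filter Zfpm1 did (adjusted p = 0.0247, edgeR). Between old hets and old controls 0 were called, with a median of -0.20, Mt2 at -0.998 and Hemgn at -0.88. In the difference of het effects 0 were called, with Zfpm1 at 1.38 and Cpne2 at -1.17. The globin genes of the list summed to 31.6 to 444 CPM per library and followed the members only in part. Old control 2, old het 2 and old het 3 were lowest at 31.6, 57.7 and 36.1 CPM, with low member sums too. Young het 1, with a low member sum, was highest. Young control 1 and young control 2, with member sums of 1184 and 937 CPM, had only 140 and 156 CPM of globin.

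**Figure D5:**
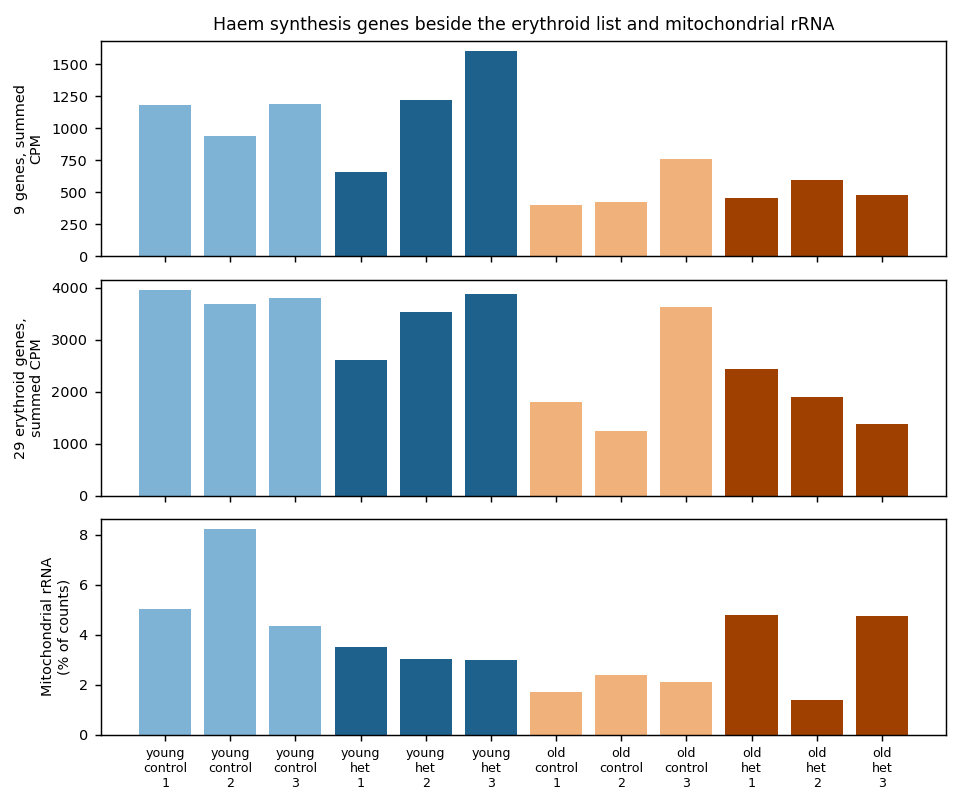
Bars give, for each library, the summed CPM of the 9 haem genes, the summed CPM of 29 erythroid genes and the share of counts from mitochondrial ribosomal RNA in percent, all from 0. Old control 3 is the highest old library in the haem sum and the erythroid sum, at 758 and 3632 CPM, and lies above young het 1 in both.

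Markers of other cells differed in summed level between groups, although the gate on lineage-negative cells is meant to remove mature neutrophils, monocytes, macrophages, B cells and T cells. Those of neutrophils and monocytes (16 genes) summed to between 11801 and 25476 CPM per library, with means of 14949 CPM in young controls and 21566 in young hets, and 15034 and 15143 in the old groups. Of the 16, 4 rose and 1 fell between old and young controls, and 1 rose between young hets and young controls. Over all tested genes 6.98% were called in the first of these comparisons and 0.424% in the second. Megakaryocyte genes (12, with Gp6 at 0 throughout) summed to 185 to 339 CPM in young controls and 472 to 717 in old controls, with 0 of 9 tested called in any comparison. Basophil and mast cell genes (8, with Cd200r3 at 0) summed to 262 to 566 CPM in young controls and 777 to 1012 in young hets. Of 6 tested, 1 rose in young hets against young controls and 1 in old against young controls. Macrophage genes of the erythroblastic island (10) summed to 47.1 to 468 CPM per library, and B, T and dendritic cell genes (12) to 27.9 to 564 CPM, the top of that range being an old control. Of 6 tested in the latter list 2 rose and 1 fell between old and young controls, and of 4 tested macrophage genes 0 were called in any comparison. Between old hets and old controls, between old and young hets and in the difference of het effects 0 genes of these lists were called. Of the erythroid markers Icam4 was at 0 throughout. The part of these cells in the members' results was not tested.

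The tested members varied together across the 12 libraries. The Pearson correlation of each with the mean of the other tested members, on standardized log2 CPM, ranged from 0.55 for Urod and 0.57 for Ppox and Slc25a37 to 0.80 for Slc25a38 and 0.88 for Fech. These points share depth, group and scaling, so the values are descriptions. Among all other tested genes the 8 most like the members' mean were Klf1 at 0.95, Pigq at 0.94, Blvrb, Eif4ebp1 and Mfap1a at 0.93, and Car1, Aqp1 and Pon2 at 0.92 (n = 12 libraries). Klf1, Car1 and Aqp1 belong to the erythroid list and Blvrb, which reduces a breakdown product of haem, to the list of haem and iron genes. Klf1 averaged 117 CPM in young controls, 91.0 in young hets, 46.2 in old controls and 39.5 in old hets.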

How the data were processed

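Per the labels' protocols the kit was Lexogen's 3' mRNA-seq, whose tags come from the end of a transcript. The authors deposited raw counts per gene symbol in 1 table of 33924 genes and 12 libraries. STAR 2.4, HTSeq 0.6.1, DESeq2 and build mm9 are named without roles, per the submitters' processing notes. Annotation and strand setting are not stated in the labels.

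From these counts, edgeR 4.0.16 in R 4.3.3 was run with TMM scaling and filterByExpr (minimum count 10, minimum total 15), which kept 10604 genes. The 4 groups entered 1 quasi-likelihood fit (biological coefficient of variation 0.535) with 5 contrasts, and p-values were adjusted by Benjamini-Hochberg over all tested genes at 0.05. CPM were taken against the scaled totals of tested genes, also for genes not tested. SE is the absolute log2 change over the square root of F, and intervals of fitted changes are 1.96 SE. Groups overlap where their CPM ranges do. The intervals of pooled Alas2 ratios and floors of 3 counts cover counting error only. The fit was tested on simulated data. DESeq2 1.42.0, other scalings and filters and each library left out were alternatives. 5 more were chosen after seeing the data: both covariates, raw totals, leaving out each library for pooled Alas2 ratios, and leaving out old control 1 with young control 3.

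The members and lists were chosen with earlier results of these data known. All 9 members were named; from the lists of erythroid and of haem and iron genes, the called ones (at most 4) or else those with the 2 smallest p; and the 8 genes most like the members' mean. Some genes of the haem and iron list are not reported here and were left out of its counts and medians. The planned search for genes like Alas2 was not made because Alas2 was not tested. Promoter windows and overlapping genes came from RefSeq tables of GRCm38.p6, used for names and sequence only.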

Additional observations from a re-analysis of the deposited data

How the results depend on the processing

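The number of members called between old and young controls was 2, ranged from 0 to 3 when 1 library was left out, and was 0 with the mitochondrial rRNA covariate, 0 with the erythroid covariate, 0 without old control 1 and young control 3 together and 1 with raw library totals. It was 3 with DESeq2 and with no filter on low counts, which added Slc25a37. In the other 4 comparisons it was 0 under every alternative. The cause was not tested. A fit of the compared groups only could not be made for the difference of het effects, which uses all groups. Genes called in the whole table ranged from 1 to 355 (main 45) for young hets against young controls, 0 to 11 (main 0) for old hets against old controls, 0 to 1295 (main 740) for old against young controls and 0 to 22 (main 1) for old against young hets; for the difference of het effects they ranged from 0 to 296 (main 9), with 2 to 294 when 1 library was left out.

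Estimates of uncalled genes that changed sign were near 0 or imprecise. With the erythroid covariate these were Urod at 0.043 in young hets against controls, Alad at 0.041 and Uros at 0.025 in old hets against controls, Urod at 0.47 and Cpox at 0.16 in old against young controls, and Uros at 0.85, Ppox at 0.57 and Slc25a38 at 0.59 in old against young hets. With the mitochondrial rRNA covariate they were Slc25a38 at -0.21 in old hets against controls, and Uros at -0.41, Urod at 0.10 and Slc25a37 at 0.63 in the difference of het effects. Without old control 1 and young control 3, Ppox was at -0.14 and Slc25a38 at -0.24 in old hets against controls. With raw totals Urod was at 0.051 in young hets against controls and at 0.10 in old against young controls, and Slc25a38 at -0.056 in old hets against controls.

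With 1 library left out at a time, values crossing 0 ranged as follows. In young hets against controls Urod ran from -0.37 to 0.12 and Ppox from -1.34 to 0.21. In old hets against controls Ppox ran from -0.14 to 0.96, Slc25a38 from -0.24 to 0.71, Alad from -0.28 to 0.26, Uros from -1.12 to 0.91 and Cpox from -0.93 to 0.0096. Between old and young controls Urod ran from -0.57 to 0.073, and between old and young hets Slc25a38 ran from -0.97 to 0.17 and Ppox from -1.01 to 0.60. In the difference of het effects Slc25a37 ran from -0.58 to 0.11 and Cpox from -0.61 to 0.33. No paired analysis was possible because the replicate numbers follow accession order and the titles number each library on its own. Depth limits Alas2, Uros, Ppox and Slc25a38 most, since 3 counts equal up to 5.10 CPM.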
